A study of Mus musculus with 12 samples.

Results

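The genes described are 10 interferon-induced GTPases of the mouse, 6 guanylate-binding protein (GBP) genes and 4 immunity-related GTPase (IRG) genes. They were chosen by symbol, as the rows Gbp2, Gbp3, Gbp5, Gbp6, Gbp7, Gbp9, Irgm1, Irgm2, Igtp and Iigp1 of each of 2 expression tables that list 25124 genes, and all 10 were found in both tables. Both families are switched on by interferons. Type I interferons act on interferon-stimulated response elements (ISRE) and interferon gamma acts on gamma-activated sites (GAS), each through transcription factors that receptor-bound kinases switch on. GBPs are large dynamin-like GTPases that assemble on the vacuoles of intracellular microbes and feed inflammasome signalling. The IRG products Irgm1, Irgm2 and Igtp (Irgm3) sit on the cell's own membranes and hold effector IRG proteins such as Iigp1 (Irga6) inactive until these load onto a pathogen vacuole. In nervous tissue such genes are known mainly as a readout of interferon signalling in microglia, infiltrating leukocytes, astrocytes and endothelium.

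Polyadenylated RNA of whole retina was sequenced in 12 libraries, 6 groups of 2, from wild-type (WT) C57BL/6J mice. In the single-IOP series, 1 eye of an animal aged 3 months or 18 months was held at an intraocular pressure (IOP) of 30 mmHg for 1 h, and the retinas of that eye (3mo IOP, 18mo IOP) and of the untreated fellow eye (3mo control, 18mo control) were taken on day 2. In the repeated-IOP series the same pressure was applied 4 times, biweekly, starting at 3 months of age, and retinas of treated eyes (4xIOP) and fellow eyes (4xIOP control) were again taken on day 2. Controls are therefore eyes of treated animals, not of untreated ones. The labels do not say which library came from which animal, and p-values measure only the spread between these libraries.

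The short stretches upstream of the genes that hold their ISRE are shown because every member with a promoter entry holds one. The motif searched was GAAA, any 2 bases and GAAA again, on both strands, in the 250 bases before the annotated start. The capitals mark the match, which reads TTTC, any 2 bases and TTTC where it lies on the other strand. Sequences are RefSeq promoter entries on the build GRCm38.p6, printed 5′ to 3′ on the strand of the gene, 30 bases each, and 7 of the 10 members were matched to an entry.
Gbp2 (chr3:142620594-142620623, plus strand): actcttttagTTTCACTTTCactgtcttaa
Gbp3 (chr3:142559992-142560021, plus strand): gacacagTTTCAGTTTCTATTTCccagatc
Gbp5 (chr3:142496759-142496788, plus strand): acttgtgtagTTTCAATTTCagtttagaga
Gbp7 (chr3:142530273-142530302, plus strand): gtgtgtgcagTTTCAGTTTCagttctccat
Irgm1 (chr11:48871428-48871457, minus strand): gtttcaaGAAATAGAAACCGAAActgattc
Irgm2 (chr11:58214903-58214932, plus strand): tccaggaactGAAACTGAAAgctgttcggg
Igtp (chr11:58199512-58199541, plus strand): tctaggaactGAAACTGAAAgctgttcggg

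An ISRE match was present upstream of all 7 members with an entry, and in 2.98% of 32851 mouse promoters of the same length. In Gbp3 and Irgm1 the capitals cover 2 overlapping matches. In Irgm2 and Igtp, which are neighbours on chromosome 11, the printed 30 bases are nearly the same, and their 250 upstream bases are 68.1% identical in an alignment. A GAS match, searched as TTC, any 3 bases and GAA (a motif that reads the same way on either strand), was found upstream of 4 of the 7, namely Gbp5, Gbp7, Irgm2 and Igtp, and in 7.02% of all promoters. The GAS and ISRE matches do not overlap in these genes. A match is a description of letters and does not show that a factor binds there. For Gbp7 and Irgm2 the bases just after the start were not found as an unbroken stretch in an annotated transcript of the gene. Their starts are therefore less certain.

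**Figure D1:**
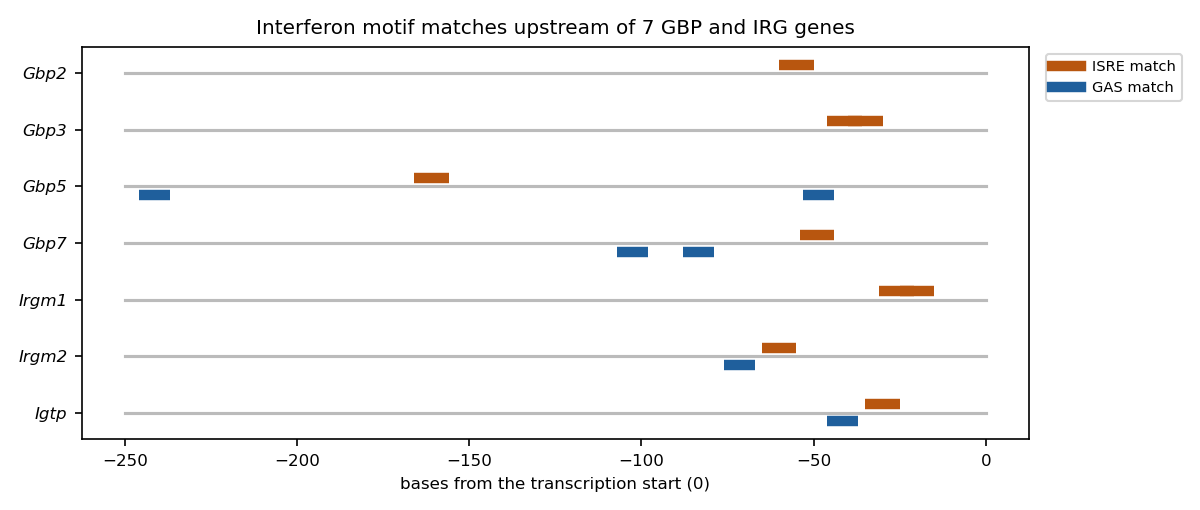
Positions of ISRE matches (orange) and GAS matches (blue) in the 250 bases before the annotated start (0) of 7 GBP and IRG genes, in bases. All 7 genes hold an ISRE match, which ends at position -15 in Irgm1 and at -156 in Gbp5, and 4 of them hold a GAS match.

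Most members lie in clusters, in the mm10 coordinates of the deposited tables. Gbp5 (chr3:142496934-142522344), Gbp7 (chr3:142530336-142550151), Gbp3 (chr3:142560044-142573213) and Gbp2 (chr3:142620663-142638008) follow each other on chromosome 3, and Gbp9 (chr5:105076466-105110292) and Gbp6 (chr5:105270702-105293699) lie on chromosome 5. Igtp (chr11:58199556-58207592) and Irgm2 (chr11:58214977-58222783) lie side by side on chromosome 11, Irgm1 (chr11:48865245-48871420) lies elsewhere on it, and Iigp1 is on chromosome 18. Values were counted over the exons of these genes. Close copies limit how far a read can be assigned to a single gene. Of the distinct stretches of 50 bases in the annotated Gbp6 transcripts, 90.2% also occur in Gm43302, an annotated gene that covers the same locus on the same strand, and 62.3% occur in Gbp10. The shared percentage was 12.7% for Gbp7, 11.8% for Igtp (with Irgm2), 9.56% for Gbp9 and at most 7.83% for the other 6 members. Gbp6 values are therefore uncertain as values of that gene alone. Annotated spans on the same strand also overlap Gbp9 (Gbp8), Igtp (Irgm2) and Gbp7 (Gm43802, a pseudogene). The isoform listed for Gbp9 had 5430 bases in the single-IOP table and 5548 bases in the repeated-IOP table.

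Expression is given as FPKM, fragments scaled to transcript length and to mapped tags. Levels of different genes can be compared only roughly, since a trend with transcript length remained and differed between libraries. Libraries held between 39766247 and 59455051 mapped tags, of which 44.2% to 71.5% lay in exons. The members rested on 26 to 2082 reads per library in the single-IOP series and on 9 to 3900 reads in the repeated-IOP series, and no member was at or under the limit of 3 reads in any library. Differences were tested with limma on log2(FPKM + 0.5) over the 13731 and 13718 genes whose mean in their series reached 0.5 FPKM, which included all 10 members in both. Calls required a p of 0.05 or less after Benjamini-Hochberg adjustment, together with a change of 1 or more on the log2 scale. The added 0.5 makes the log2 fold change of a weakly expressed gene smaller than its FPKM ratio. In whole retina, more cells of a type and more RNA per cell cannot be told apart. All 7 rod markers were present in every library. Their summed level was 9855 to 10300 FPKM in 4xIOP control and 4850 to 7276 FPKM in 4xIOP libraries. Of the 7, 0 were called by limma after 4 elevations, and voom called 3. By limma 2 had an unadjusted p under 0.05, as did 2119 of 13718 genes.

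In the control eyes of young animals the GTPase genes were present at low levels. Their summed level was 13.2 and 11.97 FPKM in the 3mo control libraries. Igtp at 2.57 ± 0.43 FPKM (SD, n = 2), Irgm1 at 2.52 ± 0.13 and Gbp2 at 2.30 ± 0.52 were the most abundant members and overlapped each other in their 2 libraries. Gbp3 followed at 1.56 ± 0.73 FPKM and Gbp6 at 1.24 ± 0.14, and these also overlapped. Gbp7 at 0.804 ± 0.023 FPKM lay below both Gbp6 libraries and above both Irgm2 libraries. Irgm2 (0.495 ± 0.13 FPKM), Gbp9 (0.416 ± 0.15), Iigp1 (0.338 ± 0.19) and Gbp5 (0.335 ± 0.15) were the least abundant, and neighbours in this order overlapped.

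**Figure D2:**
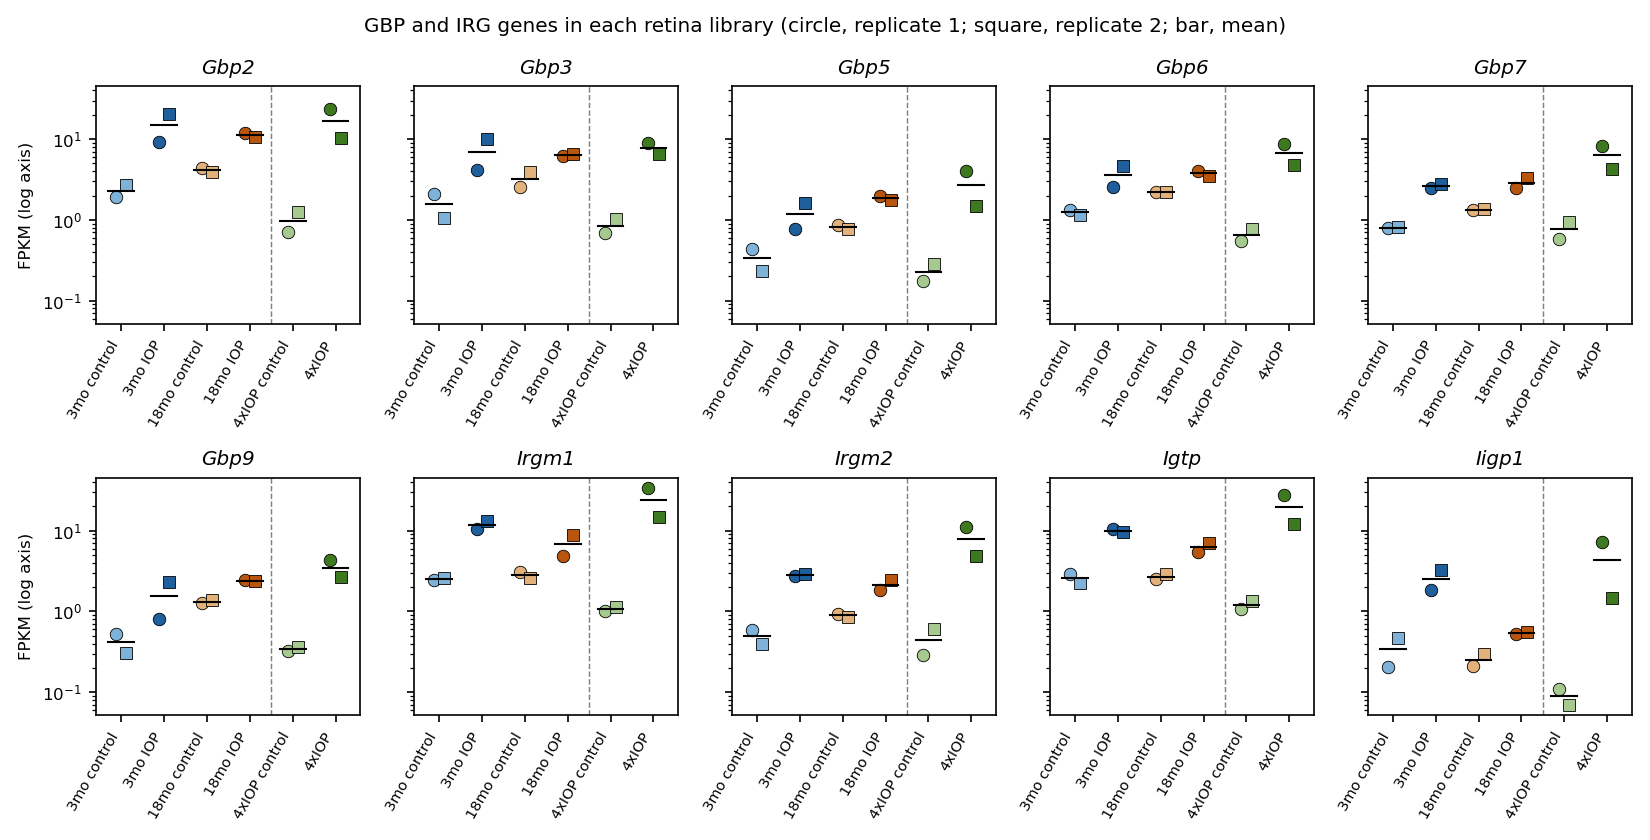
FPKM of each member in every library on a log axis, with circles for replicate 1, squares for replicate 2 and bars for group means, and a dashed line between the single-IOP and repeated-IOP series. In all 10 panels both IOP libraries lie above both control libraries of their own age or series, and Iigp1 has the lowest value, 0.070 FPKM in a 4xIOP control library.

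A single hour of raised pressure at 3 months of age was followed on day 2 by higher values of all 10 genes in both IOP libraries, 6 of them past the test. The summed level of the 10 genes was 13.2 and 11.97 FPKM in control libraries and 45.4 and 70.5 FPKM after IOP. All 10 genes had both IOP libraries above both control libraries, where 28.6% of all tested genes did. By limma with Benjamini-Hochberg adjustment 6 of 10 members were called higher (Gbp2, Gbp7, Irgm1, Irgm2, Igtp and Iigp1), against 0.568% of all tested genes, and all 10 had an unadjusted p under 0.05, as did 1169 of 13731 genes. The median change of the members was 1.75 on the log2 scale, and that of all tested genes was 0.13.

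Among the GBP genes, Gbp2 was listed at 1.93 and 2.67 FPKM in 3mo control libraries and at 9.21 and 20.5 FPKM in 3mo IOP libraries. It had the largest change of the members, 2.36 ± 0.33 (SE) on the log2 scale (adjusted p = 0.0325), and its 2 IOP libraries lay far apart. Gbp7, which is linked to oxidative and autophagic defence, went from 0.788 and 0.820 FPKM to 2.49 and 2.76 FPKM, the closest pair of IOP libraries among the GBP genes. Its change was 1.26 ± 0.20 (adjusted p = 0.0378). The other 4 GBP genes were not called. Gbp3 stood at 2.08 and 1.049 FPKM in controls and 4.12 and 9.90 FPKM after IOP (1.80 ± 0.40, adjusted p = 0.127). Gbp6 stood at 1.34 and 1.14 FPKM in controls and 2.53 and 4.61 FPKM after IOP (1.18 ± 0.26, adjusted p = 0.122). In both genes IOP replicate 2 was well above IOP replicate 1. Gbp5, which promotes assembly of the NLRP3 inflammasome, stood at 0.440 and 0.230 FPKM in controls and 0.771 and 1.61 FPKM after IOP (0.98 ± 0.28, adjusted p = 0.255). Gbp9 stood at 0.523 and 0.309 FPKM in controls and 0.807 and 2.31 FPKM after IOP (1.07 ± 0.34, adjusted p = 0.325). Across the 6 GBP genes the higher of the 2 IOP libraries was replicate 2 each time.

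The 4 IRG genes were all called higher at 3 months. Igtp was listed at 2.88 and 2.27 FPKM in controls and at 10.4 and 9.66 FPKM after IOP, a change of 1.78 ± 0.20 on the log2 scale with the smallest adjusted p of the members, 0.0221. Irgm1 went from 2.43 and 2.62 FPKM to 10.6 and 13.1 FPKM (2.02 ± 0.27, adjusted p = 0.0319). Irgm2 went from 0.590 and 0.400 FPKM to 2.71 and 2.87 FPKM (1.73 ± 0.21, adjusted p = 0.0293). In these membrane-bound regulators the IOP libraries agreed closely. The effector Iigp1 went from 0.206 and 0.469 FPKM to 1.84 and 3.26 FPKM, the largest FPKM ratio of the family (7.55), with a log2 change of 1.84 ± 0.29 (adjusted p = 0.0378). Iigp1 passed the filter on low values only through the 3mo IOP libraries, since it averaged 0.378 FPKM in the other 6, so a difference was built into its test. The calls rest on few libraries. Without 3mo control replicate 1, 3mo IOP replicate 1 or 3mo IOP replicate 2 no member was called, and without either 18mo control library, which enters only the shared spread, 1 was (Igtp). With no filter on low values 0 of 10 were called. With voom on recovered reads 0 of 10 were called and 10 of 10 had an unadjusted p under 0.05. The changes stayed positive for every member tested under every setting (5 members with the filter at 2 FPKM). Median-of-ratios scaling lowered the median of all tested genes from 0.13 to -0.04 and left 1 call, with member changes of 0.90 to 2.19.

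At 18 months of age the same elevation was also followed by higher levels in both IOP libraries. The summed level was 19.3 and 20.1 FPKM in controls and 41.8 and 47.0 FPKM after IOP. All 10 members again had both IOP libraries above both controls, where 36.5% of all tested genes did. None was called by limma, where 0.117% of all tested genes were called higher, 7 of 10 members had an unadjusted p under 0.05 (1297 of 13731 genes did), and voom called 0. The adjusted p lay between 0.101 and 0.822, and the median change was 0.89 against 0.09 over all tested genes.

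Igtp was nearest to a call at 18 months. It was listed at 2.49 and 2.89 FPKM in controls and 5.43 and 7.12 FPKM after IOP, a log2 change of 1.08 with a 95% interval of 0.62 to 1.54 (adjusted p = 0.101). Irgm1 stood at 3.05 and 2.57 FPKM in controls and 4.85 and 8.82 FPKM after IOP, a change of 1.10 (0.48 to 1.71). It was the single member called without 18mo IOP replicate 1, where 1.02% of all tested genes were called higher. Irgm2 stood at 0.936 and 0.852 FPKM in controls and 1.83 and 2.46 FPKM after IOP, a change of 0.91 (0.42 to 1.41). Iigp1 had 0.210 and 0.295 FPKM in controls and 0.528 and 0.559 FPKM after IOP. Its change was 0.47 (-0.19 to 1.14) on the log2 scale, where the added 0.5 counts for much at this level, and its FPKM ratio was 2.15.

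The 2 IOP libraries of 5 GBP genes were closer at 18 months than at 3 months, with Gbp7 the exception. Gbp2 stood at 4.42 and 3.90 FPKM in controls and 11.9 and 10.6 FPKM after IOP, the largest change of the family at this age (1.34, 95% interval 0.57 to 2.10). Gbp3 stood at 2.55 and 3.93 FPKM in controls and 6.24 and 6.59 FPKM after IOP (0.91, interval -0.01 to 1.83). Gbp7 stood at 1.32 and 1.35 FPKM in controls and 2.47 and 3.28 FPKM after IOP (0.87, interval 0.41 to 1.32). These folds were near 2 in FPKM, with ratios between 1.71 and 2.71 over the 6 GBP genes. Gbp6 had 2.20 and 2.19 FPKM in controls and 4.06 and 3.46 FPKM after IOP (0.66, interval 0.06 to 1.25). Gbp5 had 0.865 and 0.760 FPKM in controls and 1.99 and 1.77 FPKM after IOP (0.86, interval 0.21 to 1.51). Gbp9 had 1.25 and 1.39 FPKM in controls and 2.47 and 2.35 FPKM after IOP (0.68, interval -0.11 to 1.46).

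**Figure D3:**
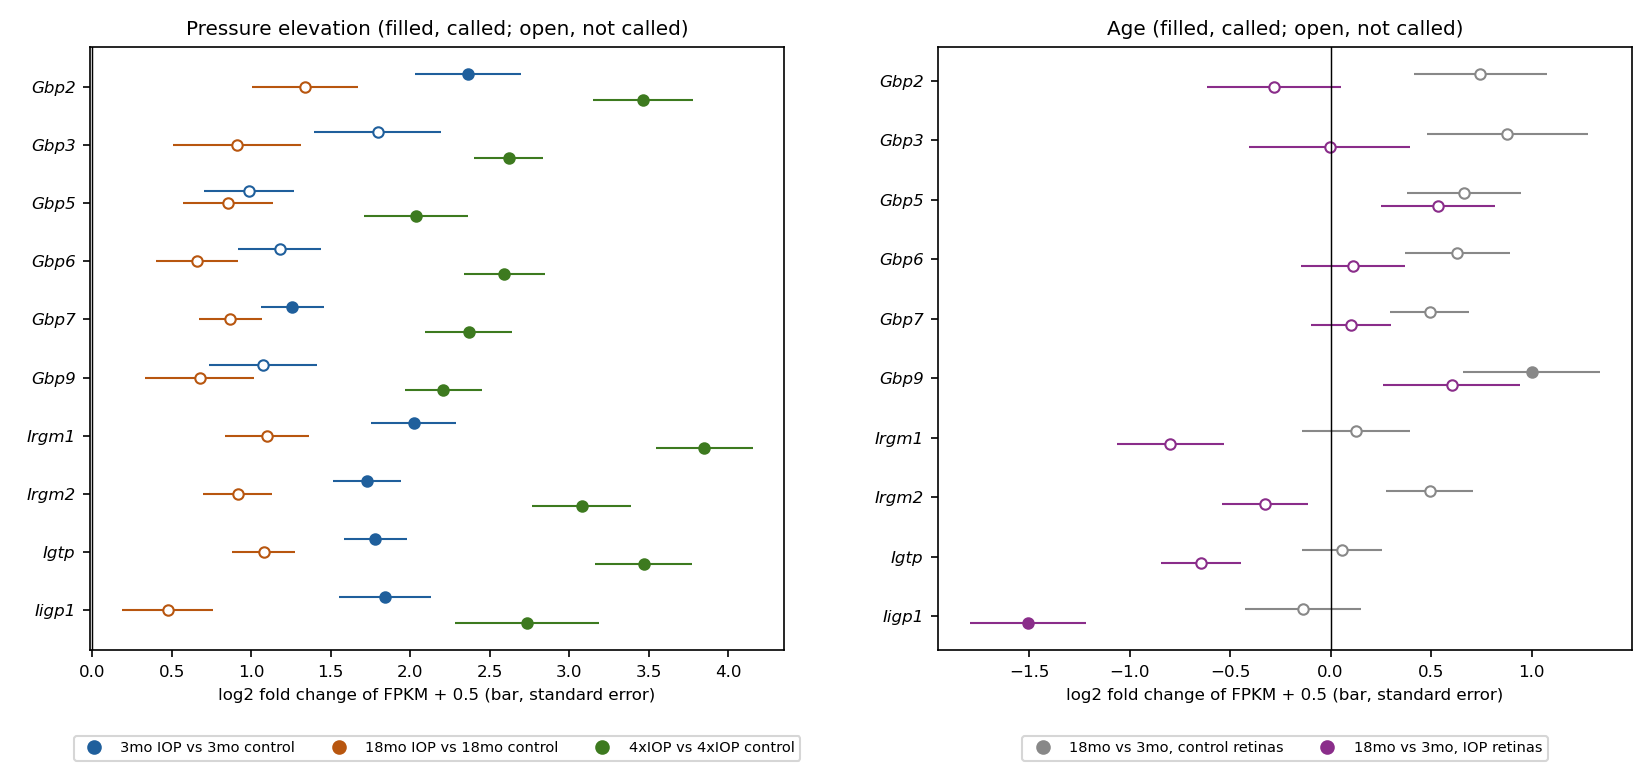
Log2 fold change of FPKM + 0.5 with its standard error for each member, for raised pressure against control (left, 3 comparisons) and for 18 against 3 months (right, 2 comparisons), with filled points for called changes. On the left all points lie above 0 and the 4xIOP points reach 3.85 (Irgm1), and on the right the 4 IRG genes lie below 0 in IOP retinas, down to -1.51 (Iigp1).

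The difference between the responses at the 2 ages was tested as an interaction term. The change was smaller at 18 months in 10 of 10 members, with a median difference of -0.76 on the log2 scale against -0.04 over all tested genes. No member was called by limma (0% of all tested genes were, adjusted p = 0.9999 for every member), and voom called 0. The unadjusted p was under 0.05 in the 4 IRG genes and in no GBP gene, and in 218 of 13731 genes. This count of 4 members was 1 with voom, and 1 without 3mo control replicate 2, 3mo IOP replicate 2, either 18mo control library or 18mo IOP replicate 1, and 6 without 3mo IOP replicate 1. The difference was -0.92 ± 0.38 in Irgm1, -0.82 ± 0.30 in Irgm2 and -0.70 ± 0.28 in Igtp. It was -1.37 ± 0.41 in Iigp1, where it was built in, since the gene passed the filter only through the 3mo IOP libraries. It ranged from -1.03 (Gbp2) to -0.13 (Gbp5) in the GBP genes, and whether the families differ in it was not tested. Without 3mo IOP replicate 2 the difference turned positive in Gbp5 (0.24) and Gbp9 (0.15), and without 3mo control replicate 2 it turned positive in Gbp5 (0.05).

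With age alone, in control retinas, the GBP genes had higher values in the old libraries and most IRG genes overlapped. All 6 GBP genes had both 18mo control libraries above both 3mo control libraries, as did Irgm2, where 45.7% of all tested genes did. Irgm1, Igtp and Iigp1 overlapped between the ages. A single member was called higher by limma, Gbp9, where 11.6% of all tested genes were, so that 1 of 10 members is near the background (voom called 0, and 4 of 10 had an unadjusted p under 0.05 by limma, as did 7568 of 13731 genes). Gbp9 went from 0.523 and 0.309 FPKM to 1.25 and 1.39 FPKM (1.00 ± 0.34, adjusted p = 0.0431). Its call was lost under voom, without any single library of the compared groups or of the 18mo IOP group, and when each library's trend with transcript length was removed. The log2 changes of the other 5 GBP genes were 0.49 to 0.88, with adjusted p between 0.0711 and 0.103. The libraries differ in this trend. The median FPKM of short coding transcripts over that of long ones was 1.89 and 4.70 for 3mo controls, and it lay between 1.20 and 1.36 for the 18mo libraries, and its part in the age values was not tested beyond that alternative, in which the 6 GBP changes ran from 0.10 to 0.74. Median-of-ratios scaling moved the median of all tested genes in this comparison from 0.16 to 0.01 and their calls to 1056 higher and 1959 lower, from 1595 and 1590.

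Between the ages after IOP, all 4 IRG genes were lower in both 18mo IOP libraries than in both 3mo IOP libraries, where 34.5% of all tested genes were. Over the 10 members, 4 below without overlap and 1 called lower are near the background of this comparison. Iigp1 was called lower by limma, against 11.6% of all tested genes, and went from 1.84 and 3.26 FPKM at 3 months to 0.528 and 0.559 FPKM at 18 months, a log2 change of -1.51 ± 0.29 (adjusted p = 0.00853). The gene was admitted by the 3mo IOP libraries, where it is high, and with no filter it was called as well. Irgm1 (-0.80, adjusted p = 0.0432) and Igtp (-0.64, adjusted p = 0.0331) passed the adjusted p (as 19.6% of all tested genes did in this direction) but not the fold threshold, and Irgm2 (-0.32, adjusted p = 0.244) passed neither. The direction of all 4 was kept under every setting in which they were tested (2 of them with the filter at 2 FPKM). Gbp5 and Gbp9 were higher in both 18mo IOP libraries (43.2% of all tested genes were), with changes of 0.53 and 0.60 and adjusted p of 0.155 and 0.181, and Gbp2, Gbp3, Gbp6 and Gbp7 overlapped. Without 3mo IOP replicate 2 the Iigp1 change was -1.17 and no member was called, and without 18mo IOP replicate 2 Irgm1 was called as well. The comparisons by age share their libraries with those by IOP, so the values are set side by side and not related to each other.

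After 4 elevations all 10 genes were far above the fellow eyes. The summed level was 5.46 and 7.77 FPKM in 4xIOP control libraries and 137 and 62.9 FPKM in 4xIOP libraries. All 10 members were called higher by limma, where 5.45% of all tested genes were, and all 10 had both 4xIOP libraries above both controls, where 27.7% did. Irgm2, Gbp9, Gbp5 and Iigp1 averaged under 0.5 FPKM in controls and passed the filter only through the 4xIOP libraries, so that their calls carry less weight, and with no filter 8 members were called, not Gbp5 and Iigp1. Their log2 changes lay between 2.04 and 3.85, with a median of 2.68 against 0.10 over all tested genes. All 10 were also called with each of the 4 libraries left out in turn, and voom called 8 of 10, not Gbp5 and Iigp1.

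On the scale of log2(FPKM + 0.5), Irgm1, Igtp and Gbp2 had the largest changes after 4 elevations. By the ratio of mean FPKM the order differed, with Iigp1 (49.2), Irgm1 (22.4) and Irgm2 (17.9) first. Irgm1 was listed at 1.00 and 1.14 FPKM in controls and at 33.4 and 14.5 FPKM in 4xIOP libraries, the largest log2 change of all (3.85 ± 0.30, adjusted p = 3.1e-06). Igtp went from 1.06 and 1.35 FPKM to 27.4 and 12.1 FPKM (3.47 ± 0.30, adjusted p = 7.5e-06). Irgm2 went from 0.287 and 0.599 FPKM to 11.05 and 4.83 FPKM (3.08 ± 0.31, adjusted p = 2.3e-05). In each of them replicate 1 was above replicate 2, and both were far above the controls. Iigp1, at 0.108 and 0.070 FPKM in control, reached 7.29 and 1.47 FPKM, a ratio of means of 49.2. Its control values rest on 13 and 9 reads, and its log2 change was 2.74 ± 0.45 (adjusted p = 0.0015).

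The GBP genes changed by 2.04 to 3.46 on the log2 scale, with adjusted p of at most 0.0012. Gbp2 went from 0.700 and 1.24 FPKM to 23.3 and 10.2 FPKM (3.46 ± 0.32). Gbp3 went from 0.678 and 1.013 FPKM to 8.94 and 6.62 FPKM (2.62 ± 0.22). Gbp6 went from 0.543 and 0.774 FPKM to 8.63 and 4.78 FPKM (2.59 ± 0.26). In all of these the groups stood apart by several-fold. Gbp7 went from 0.580 and 0.951 FPKM to 8.29 and 4.25 FPKM (2.37 ± 0.28). Gbp9 went from 0.326 and 0.358 FPKM to 4.27 and 2.67 FPKM (2.21 ± 0.24). Gbp5 went from 0.176 and 0.283 FPKM to 4.00 and 1.48 FPKM (2.04 ± 0.33). The order of levels after 4 elevations was Irgm1, Igtp, Gbp2, Irgm2, Gbp3, Gbp6, Gbp7, Iigp1, Gbp9 and Gbp5, from 23.9 down to 2.74 FPKM, and each neighbouring pair overlapped. Single and repeated elevation are held in separate tables, so the 3mo IOP and 4xIOP changes were not tested against each other.

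Of 12 listed kinases and transcription factors 11 were tested, and 2 were called higher at 3mo (0 by voom, 0.568% of all tested genes by limma), 0 at 18mo (6 had an unadjusted p under 0.05 by limma, and voom called 0) and 7 after 4 elevations (5.45% of all tested genes). Irf7, an interferon regulatory factor that amplifies type I interferon, was listed at 3.70 and 4.59 FPKM in 3mo control and at 15.7 and 13.2 FPKM in 3mo IOP libraries (1.69 ± 0.20, adjusted p = 0.0293). Irf8, a factor of microglia and myeloid cells, went from 0.068 and 0.059 FPKM to 1.03 and 0.915 FPKM (1.38 ± 0.20, adjusted p = 0.0325). The largest change among those not called was in Irf9 (1.96, adjusted p = 0.0661). After 4 elevations Irf1, which binds ISRE-like sites, changed by 2.54 ± 0.27, Irf9 by 3.21 ± 0.25, Nlrc5, an activator of class I antigen presentation genes, by 3.24 ± 0.35, and Stat2 by 1.49 ± 0.25, all called. Irf8 and Nlrc5 passed the filter in this series only through the 4xIOP libraries. The kinases Jak1 (0.26), Jak2 (0.38) and Tyk2 (0.29), and Irf2 (0.66), were not called. In control retinas with age, Irf7 (1.94), Irf8 (1.02), Stat2 (1.11) and Tyk2 (1.06) were called higher, where 11.6% of all tested genes were.

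Of 6 interferon receptor genes 5 were tested. None was called at 3mo or 18mo by limma or voom (2 had an unadjusted p under 0.05 in each by limma). After 4 elevations 2 were called higher, where 5.45% of all tested genes were. These were Ifnar2 (1.44 ± 0.19) of the type I receptor and Il10rb (1.35 ± 0.20), a subunit shared with the lambda interferon receptor. Ifnar2 stood at 1.43 and 1.57 FPKM in 4xIOP control and 4.61 and 5.22 FPKM in 4xIOP libraries. Ifngr1 (0.15) and Ifngr2 (0.42), which form the interferon gamma receptor, were not called. The interferon ligands were near the limit of measurement, and none of the 9 was tested. Of these, 7 had 0 reads in all 12 libraries, Ifng had reads in 4xIOP replicate 1 only (4 reads, 0.059 FPKM), and Ifnb1 had 14 and 16 reads in the 18mo IOP libraries (0.332 and 0.351 FPKM), 2 and 2 in the 18mo control libraries and 0 elsewhere.

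Of 7 genes listed as negative regulators of interferon signalling, 3 were called higher at 3mo (0 by voom, 0.568% of all tested genes by limma). At 18mo 0 were called by limma or voom, and 4 had an unadjusted p under 0.05 by limma. After 4 elevations 4 of 6 tested were called (5.45% of all tested genes). The list and its counts include Isg15, which is the modifier that Usp18 removes and not itself such a regulator. Socs3, an inhibitor of JAK kinases that follows cytokine signalling in general, stood at 0.956 and 0.801 FPKM in 3mo control and 7.77 and 6.09 FPKM in 3mo IOP libraries (2.42 ± 0.36, adjusted p = 0.0325). Usp18, which removes Isg15 from proteins and blocks the type I receptor, changed by 2.06 ± 0.30, and Isg15 itself, a ubiquitin-like modifier, by 2.24 ± 0.33, at 3mo. After 4 elevations Socs3 changed by 4.19 ± 0.20, Usp18 by 2.67 ± 0.20, Ptpn6 by 2.61 ± 0.24 and Isg15 by 2.55 ± 0.23, and of these Socs3, Ptpn6 and Isg15 passed the filter only through the 4xIOP libraries. In control retinas Socs3 was called higher at 18 months, at 20.6 and 9.33 FPKM (3.39 ± 0.36, adjusted p = 0.0031). Usp18 was called lower in 18mo IOP than in 3mo IOP retinas (-1.26 ± 0.30, adjusted p = 0.0151), and Socs3 was called higher (2.38 ± 0.36, adjusted p = 0.0052).

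**Figure D4:**
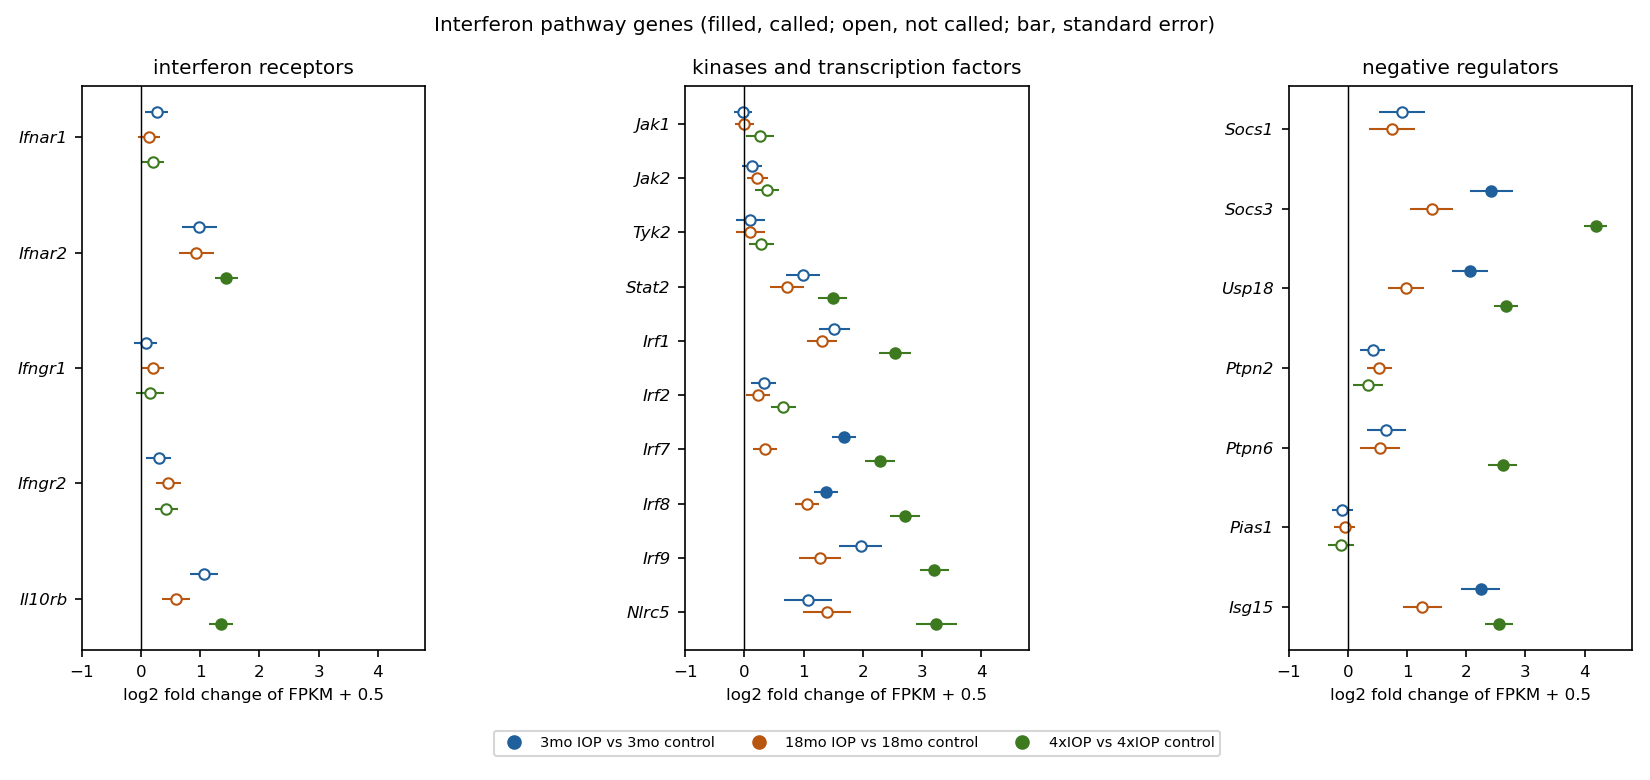
Log2 fold change of FPKM + 0.5 with its standard error for interferon receptors, kinases and transcription factors, and negative regulators (1 tested gene is left out), after IOP at 3 months (blue), at 18 months (orange) and after 4 elevations (green), with filled points for called changes. Socs3 after 4 elevations lies farthest to the right at 4.19, and Jak1, Ifngr1 and Pias1, none of them called, lie between -0.11 and 0.26.

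Of 18 other genes of the 2 families, 2 passed the filter on low values in the single-IOP series and 8 in the repeated-IOP series, 6 of which were called higher after 4 elevations by limma (5.45% of all tested genes were) and 1 by voom. Except for Irgq they passed the filter only through the 4xIOP libraries, such as Gm12250 (0.056 and 0.140 FPKM in controls, 3.65 and 0.833 FPKM in 4xIOP libraries). Ifi47 (Irgd), an IRG effector, was listed at 0.280 and 0.413 FPKM in 3mo control and 1.36 and 1.81 FPKM in 3mo IOP libraries (1.30 ± 0.23, adjusted p = 0.0614). It had 0.371 and 0.285 FPKM in 18mo control and 0.296 and 0.293 FPKM in 18mo IOP libraries, a log2 change of -0.06 where the members had positive ones, and Irgq had -0.30 (neither called). Ifi47 was called lower there than in 3mo IOP retinas (-1.38 ± 0.23, adjusted p = 0.0061), a gene that passed the filter in this series only through the 3mo IOP libraries. After 4 elevations Ifi47 went from 0.117 and 0.370 FPKM to 6.95 and 1.69 FPKM (2.46 ± 0.42, adjusted p = 0.0020). Gm12250 (1.98), Tgtp2 (1.70), Gbp4 (1.66), Gm4951 (1.44) and Gbp10 (1.43) were the others called, and Tgtp1 (1.498, adjusted p = 0.0525) was not. Irgq had a change of -0.24 (adjusted p = 0.762).

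The 2 libraries of a treated group differed in the family's level. In 4xIOP, replicate 1 was higher in 10 of 10 members, in 3mo IOP replicate 2 was higher in 9 of 10, and in 18mo IOP the split was 4 and 6. In 3mo IOP the difference lay mainly in the GBP genes, whose sum was 19.9 and 41.7 FPKM, where the sum of the IRG genes was 25.5 and 28.9 FPKM.

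Values of markers of other cells are given beside the family. At 3mo and at 18mo, 0 of 7 tested microglia markers and 0 of 3 tested leukocyte markers were called after IOP by limma or voom (1 and 1 had an unadjusted p under 0.05 at 3mo, 1 and 3 at 18mo, by limma). S100a8 and S100a9, which are 2 of the 3 leukocyte markers, passed the filter only through the 18mo IOP libraries. All 8 microglia markers were above 0 in every library, and their summed level was 19.3 to 26.2 FPKM in 3mo control, 33.5 to 38.7 in 3mo IOP, 40.9 to 42.4 in 18mo control and 34.5 to 94.2 in 18mo IOP. In the repeated-IOP series it was 10.1 to 10.6 FPKM in controls and 46.1 to 50.7 FPKM in 4xIOP libraries, and 5 of 6 tested microglia markers were called higher, where 5.45% of all tested genes were. Of the 6, Tmem119 and Aif1 passed the filter only through the 4xIOP libraries. The sum of 13 markers of blood-derived leukocytes was 5.90 to 6.44 FPKM in 3mo control, 19.2 to 74.0 in 3mo IOP, 4.92 to 11.2 in 18mo control and 45.7 to 50.5 in 18mo IOP. It was 0.952 to 1.22 FPKM in 4xIOP control and 154 to 155 FPKM in 4xIOP libraries, mostly Lyz2 (0.837 and 0.764 against 113 and 107 FPKM), and 5 of 5 tested were called higher, 4 of which passed the filter only through the 4xIOP libraries. The T cell genes Cd3e and Cd3d, with Cd8a, Cd4, Nkg7, Cd79a and Ms4a1, stayed at 0.331 FPKM or less in all libraries, the value of Nkg7 in 4xIOP replicate 1. Gfap, the astrocyte and reactive glia filament, was called higher in all 3 IOP comparisons by limma (3.44, 3.37 and 3.76), and by voom no astrocyte marker was called at 3mo or 18mo. The part of these cells in the GTPase values was not tested. Between the 4xIOP libraries the leukocyte sums were 155 and 154 FPKM and the microglia sum was lower in replicate 1 (46.1 against 50.7 FPKM), where the GTPase sum was 137 against 62.9 FPKM. In 3mo IOP the leukocyte sum was higher in replicate 1 (74.0 against 19.2 FPKM) and the GBP sum higher in replicate 2. Each group has 2 libraries, and whether these sums go together was not tested. Lens markers were higher after 4 elevations (4 of 4 tested called, 3 by voom, 3 of them admitted by the filter only through the 4xIOP libraries, 24.8 to 46.0 against 0.544 to 2.69 FPKM) and pigment epithelium markers lower (3 of 3 called, where 0.693% of all tested genes were, 2 of them admitted only through the 4xIOP control libraries, 2.66 to 5.76 against 25.7 to 35.4 FPKM), and their part was not tested either. In the age comparison of controls, 7 of 8 endothelial markers (Cdh5 and Tie1 admitted by the filter only through the 18mo libraries), 4 of 7 Muller glia markers and 2 of 7 tested microglia markers (Cx3cr1 admitted likewise) were called higher, where 11.6% of all tested genes were, and 5 of 5 tested pigment epithelium markers and 5 of 7 retinal ganglion cell markers were called lower. Summed Muller glia markers were 1643 to 2044 FPKM in 18mo control and 2815 to 3040 FPKM in 18mo IOP libraries, with 0 of 7 called by limma or voom (5 had an unadjusted p under 0.05 by limma).

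**Figure D5:**
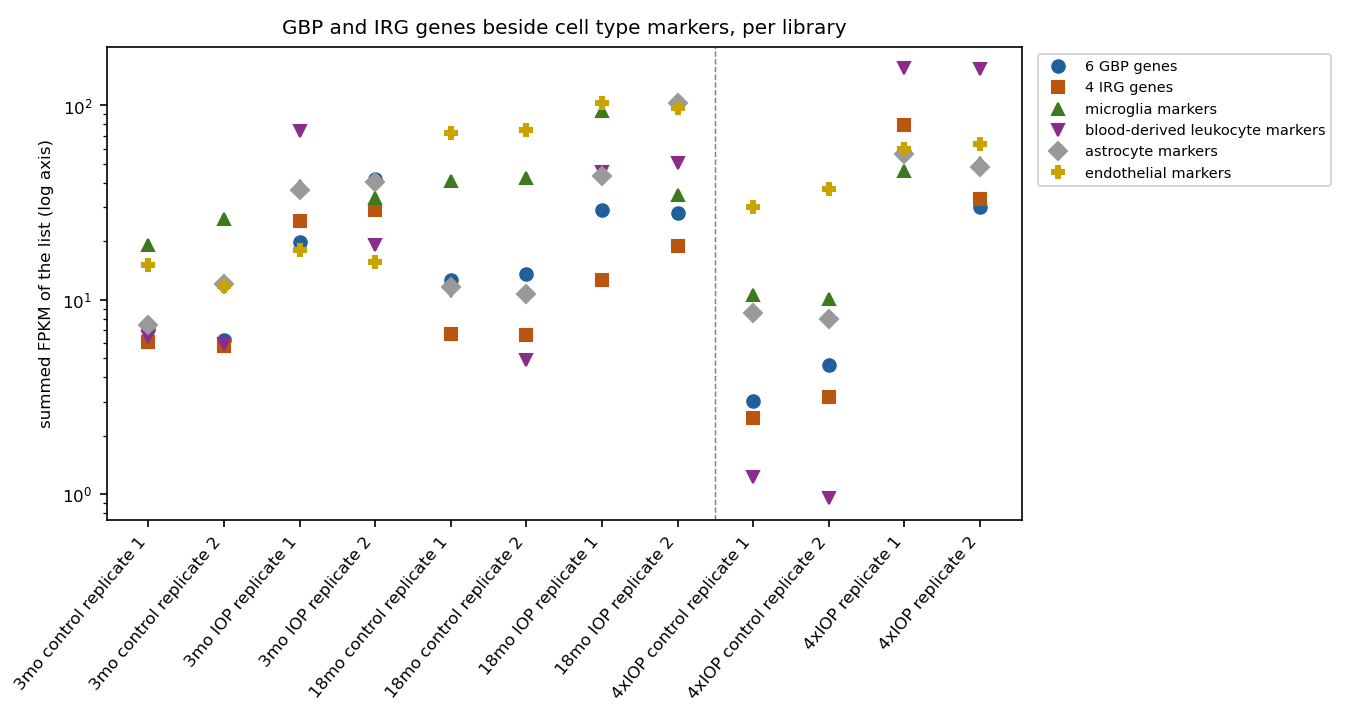
Summed FPKM per library on a log axis for the 6 GBP genes, the 4 IRG genes and 4 lists of cell type markers, with a dashed line between the single-IOP and repeated-IOP series. In the 4xIOP libraries the leukocyte marker sums are 155 and 154 FPKM and the IRG sums are 79.1 and 33.0 FPKM. Endothelial marker sums separate the ages in the single-IOP series (11.8 to 18.1 at 3 months, 71.9 to 103 at 18 months).

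Other genes with a pattern like that of the family were ranked by Pearson's r with the mean of the members, over 12 libraries after removing the mean of each series, among 13059 genes tested in both. The 5 nearest genes outside the family were Fcgr4 and Oas1b (r = 0.979 each), Eif2ak2 (0.976), Trim30a (0.972) and Dtx3l (0.971). Fcgr4, Oas1b and Trim30a averaged under 0.5 FPKM in 4xIOP controls and so entered the ranking only through the 4xIOP libraries, where the family is high. Fcgr4 is an Fc receptor of myeloid cells, Oas1b is of the oligoadenylate synthetase family, Eif2ak2 is a kinase activated by double-stranded RNA, and Dtx3l is a ubiquitin ligase. Fcgr4 averaged 0.038 FPKM in 4xIOP control and 4.62 FPKM in 4xIOP retinas. These values describe the libraries, which share depth and composition, and carry no p. Members enter the mean they are compared with, and their own r ran from 0.901 (Iigp1) to 0.992 (Irgm2).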

How the data were processed

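Retinal RNA of 12 libraries in 6 groups of 2 was analysed, with groups taken from the sample labels. Per the labels and the methods, the authors made poly(A)-selected, strand-specific libraries, aligned reads to mm10 with STAR 2.7.8a, and counted uniquely mapped exon tags with HOMER, keeping 1 isoform per locus. The submitters' processing notes also name DESeq 1.24.0 and DESeq2. As deposited by the authors, the tables hold FPKM (scaled by the length of that isoform and by mapped tags), in a separate table for each series, with replicates not pooled.

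Mapped tags were recovered from the FPKM steps, since FPKM times length gives whole reads. All values checked (100%) came within 0.12 of a whole read. The limit of 3 reads covers counting error only, and depth is known for every library. Expression was fitted as log2(FPKM + 0.5) with lmFit and eBayes with trend in limma 3.58.1 (R 4.3.3), as 4 groups in the single-IOP series (4 residual and 4.12 prior degrees of freedom) and as 2 groups in the repeated-IOP series (2 and 10.6), with Benjamini-Hochberg adjustment over all tested genes. The fits were tested on simulated data. Tables used Python 3.11.15. Whether the replicate numbers pair the libraries is not known. Deviations of same-numbered control and IOP libraries from their group means correlated at -0.28, -0.53 and -0.29. With 2 libraries per group, crossed numbers must give the same values with the opposite sign, so these values cannot show which libraries share an animal.

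All 10 members are named in every comparison. From the pathway lists many called genes are named, though not each in every comparison, and at most 4 others per list by size of change. Any marker gene could be named, and so were the 5 genes most like the family. Where a single gene of a list was picked out for its values, this was done after they were seen. The members, lists and thresholds were chosen with earlier results of these data known. Alternatives were pseudocounts of 0.1 and 1, no filter or a filter at 2 FPKM, median-of-ratios and quantile scaling, eBayes without trend, a replicate block, the adjusted p alone, removal of each library's trend with transcript length (spline with 5 degrees of freedom), voom on the recovered reads, only the groups compared, and each library left out in turn. Members were compared by shared stretches of 50 bases in GENCODE transcripts. Promoters came from RefSeq entries on GRCm38.p6. Protein sequences were not used here. The values of some single genes of the lists are not reported here.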

Additional observations from a re-analysis of the deposited data

How the results depend on the processing

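Of 10 members, the number called after IOP at 3 months was 6, and it was 0 with no filter on low values and with voom, 1 with median-of-ratios scaling and with quantile scaling, and 3 with a mean of at least 2 FPKM (5 members tested) and with only the groups compared. It ranged from 0 to 6 with single libraries left out. After IOP at 18 months 0 to 1 were called with libraries left out, and the interaction gave 0 throughout. With age in controls the 1 call fell to 0 with a pseudocount of 1, no filter, a mean of at least 2 FPKM (where Gbp9 is not tested), either scaling, the length trend removed and voom, and ranged from 0 to 1 with libraries left out. In IOP retinas with age the 1 call fell to 0 with a mean of at least 2 FPKM, where Iigp1 is not tested, was 3 by the adjusted p alone, and ranged from 0 to 2 with libraries left out. After 4 elevations between 8 and 10 members were called under every setting, and 10 with any library left out. The cause of these shifts was not tested. The replicate block was for numbers not known to mark an animal. It left 1 member called at 3 months (Gbp2) and 0 by age in controls, and changed no other count of members. With the numbers crossed, chosen after seeing the data, 8, 2 and 10 members were called after IOP at 3 months, at 18 months and after 4 elevations. Over all tested genes 2.17%, 2.17% and 5.69% were then called higher.

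Of all genes, 79 were called at 3 months (3 to 312 by setting, 0 to 257 with libraries left out), 17 at 18 months (0 to 306, 0 to 144), 3185 by age in controls (2214 to 6297, 1176 to 4717), 3000 by age after IOP (2021 to 5846, 722 to 3016) and 843 after 4 elevations (475 to 1090, 682 to 798). Single log2 changes turned sign in 22 cases, all in the interaction or by age, and none was called. By age in controls these were Irgm1 at -0.020, -0.11 and -0.030 and Igtp at -0.089, -0.18 and -0.10 (median-of-ratios, quantile, voom). With libraries left out Igtp ranged from -0.085 to 0.20 and Iigp1 from -0.37 to 0.090. By age after IOP they were Gbp3 at 0.0029 with a pseudocount of 0.1, Gbp6 at -0.075 and Gbp7 at -0.081 (quantile), and Gbp6 at -0.20 and Gbp7 at -0.34 (length trend removed). With libraries left out Gbp2 ranged from -0.84 to 0.27, Gbp3 from -0.59 to 0.58, Gbp6 from -0.27 to 0.49 and Gbp7 from -0.073 to 0.27. In the interaction Gbp5 ranged from -0.49 to 0.24 and Gbp9 from -0.95 to 0.15. Changes after IOP kept their sign in every setting in which the member was tested. With 2 libraries per group, changes near the fold threshold cannot be placed on either side of it.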

Other observations

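Genes that act with the GTPases at vacuoles and inflammasomes were followed in a list of 18, of which 17 and 16 were tested. None was called after IOP at 3 or 18 months by limma or voom (4 and 3 had an unadjusted p under 0.05 by limma). Both counts include Casp1, which would not have passed the filter without the IOP libraries of either age. After 4 elevations 4 were called higher, where 5.45% of all tested genes were. These were Trim21, an antibody receptor that marks targets for degradation (2.17 ± 0.23, from 0.859 and 0.816 FPKM to 7.01 and 4.35 FPKM), Casp1, the inflammasome protease (1.86 ± 0.26), Gsdmd, the pore-forming protein it cuts (1.73 ± 0.26), and Pim1, a kinase (1.30 ± 0.20). The autophagy genes of the list, which attach ubiquitin-like proteins to membranes and help IRG proteins find their targets, were not called after 4 elevations. By age in controls Atg5 (-1.23), Atg12 (-1.08), Map1lc3b (-1.09), Gabarap (-1.13) and Gabarapl2 (-1.27) were called lower, and Nlrp3 (1.80) and Pim1 (1.73) higher, where 11.6% of all tested genes were called in each direction. The median FPKM of short coding transcripts over that of long ones differs between these libraries (1.89 and 4.70 at 3 months, 1.20 to 1.36 at 18 months), and its part was not tested here. Nlrp3 was listed at 0.049 and 0 FPKM in 3mo control and at 1.24 and 1.42 FPKM in 18mo control libraries. It passed the filter on low values only through the 18mo libraries, so a difference was built into its test. Casp1 and Gsdmd passed it in the repeated-IOP series only through the 4xIOP libraries.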
